A study of Mus musculus with 6 samples.

Results

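The receptors for interleukin-3 (IL-3), interleukin-5 (IL-5) and granulocyte-macrophage colony-stimulating factor (GM-CSF) were followed in activated mouse B cells given the transcription factor Sox2. The 5 genes are Il5ra, Il3ra and Csf2ra, which encode the ligand-binding alpha chains, and Csf2rb and Csf2rb2, which encode the beta chains. They were chosen by gene symbol, as 5 of the 37620 genes in the deposited count table, and each symbol matched 1 row. The groups were pMIR-Sox2 (3 libraries), splenic B cells infected with a retroviral vector carrying Sox2, and pMIR (3 libraries), the same cells infected with the vector alone. All cells came from C57Bl/6 mice of 4 months. They were cultured with anti-CD40 (1 µg/ml) and IL-4 (12.5 µg/ml, as labelled), infected at 24 and 48 h, and sorted at 96 h on the mCherry that marks infection. Whether each replicate came from a separate mouse or from pooled mice is not in the labels, so the p-values given here reflect how far these libraries differ among themselves, which may be technical. Sox2 is here supplied from a virus, and infected cells were selected by mCherry, not by their Sox2 level.

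Each receptor of this family pairs a private alpha chain, which recognises 1 cytokine, with a beta chain that carries the signal. Csf2rb encodes the common beta chain used by all 3 cytokines. Csf2rb2 is a second beta gene found in mouse, whose product serves IL-3 together with the Il3ra chain. The kinase JAK2 is bound to the receptor and activates STAT5, which turns on survival and feedback genes. In mouse B cells IL-5 is known as a growth and differentiation factor for B-1 cells and for activated B cells, in which it favours antibody secretion, whereas IL-3 and GM-CSF receptors are better known from myeloid cells.

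The depth was 17153805 to 20770447 gene counts in the pMIR-Sox2 libraries and 21421769 to 27692437 in the pMIR libraries. Levels are given as CPM, a gene's counts relative to its library's total, corrected by TMM factors between 0.969 and 1.05. Sox2 was read at 989, 786 and 624 CPM in pMIR-Sox2 replicates 1 to 3, against 0.738, 0.334 and 1.78 CPM in pMIR replicates 1 to 3. Along the first principal component (83.4% of the variance) the groups lay apart, with pMIR-Sox2 replicate 3 nearest to pMIR. Results without that library are given beside the others. The label of the cells was checked on 7 B cell markers, all of which were read, with a summed level of 2443 to 3033 CPM in pMIR-Sox2 and 3794 to 4791 CPM in pMIR. Cd79a, a chain of the B cell receptor complex, averaged 764 ± 112 CPM in pMIR-Sox2 and 652 ± 105 CPM in pMIR (SD, n = 3 each).

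The beta chain genes are close paralogs, which bears on how well counts can be assigned to one or the other. In the reference transcripts (GENCODE M21, GRCm38, another build than the mm9 of the submitters) the coding sequences have 2688 bases in Csf2rb and 2634 bases in Csf2rb2. Of 2628 aligned positions, 95.2% are identical, and the longest identical run has 242 bases. Of all stretches of 50 bases in the Csf2rb coding sequence, 26.0% also occur in Csf2rb2, and the share is 15.8% for stretches of 75 bases. Alignments that were not unique were listed apart from the genes, with a share of 23.1 to 26.5% in pMIR-Sox2 and 25.7 to 26.0% in pMIR. The remaining stretches differ at scattered positions, and the window of 120 bases with the most differences (22) is shown, since it is there that a read tells the genes apart best. Capitals mark the bases that differ between the genes, and positions count from the first coding base, 309 to 428 in Csf2rb and 312 to 431 in Csf2rb2, both on chromosome 15.
Csf2rb: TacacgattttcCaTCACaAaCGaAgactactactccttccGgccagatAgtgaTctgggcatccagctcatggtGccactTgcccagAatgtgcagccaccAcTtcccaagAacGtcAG
Csf2rb2: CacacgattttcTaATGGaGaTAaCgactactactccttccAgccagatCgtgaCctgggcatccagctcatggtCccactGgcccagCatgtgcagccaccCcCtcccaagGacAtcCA

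Of the 5 genes, 3 rose with Sox2: Il5ra by 3.34-fold, Csf2rb by 2.01-fold and Csf2rb2 by 5.63-fold. The alpha chains of the IL-3 and GM-CSF receptors, Il3ra and Csf2ra, did not pass the test. All 5 passed the filter on low counts. Genes were compared with edgeR's quasi-likelihood test, p-values were adjusted by Benjamini and Hochberg's method across 12899 genes, and a gene is said to rise or fall at an adjusted p under 0.05. By that rule 23.2% of all tested genes rose and 20% fell, 43.2% in all, so a large part of the transcriptome moved beside these chains. For 3 of the 5 chains the groups had no overlapping libraries, as for 56.5% of all tested genes. The median log2 fold change was 1.01 over the 5 chains and −0.02 over all tested genes.

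**Figure D1:**
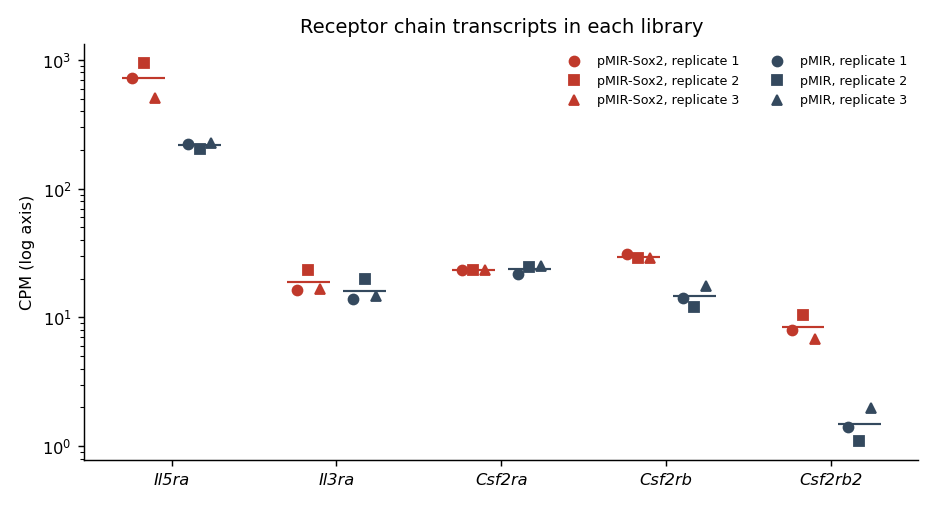
CPM of the 5 receptor chain genes in each library, on a log axis, with pMIR-Sox2 in red and pMIR in dark blue, a marker shape per replicate number and a line at each group mean. The 3 pMIR-Sox2 libraries lie above the 3 pMIR libraries for Il5ra, Csf2rb and Csf2rb2, whereas the groups overlap for Il3ra and Csf2ra.

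Il5ra (ENSMUSG00000005364, chromosome 6) encodes the alpha chain that binds IL-5. It was read at 720, 950 and 506 CPM in pMIR-Sox2 replicates 1 to 3, against 223, 203 and 226 CPM in pMIR replicates 1 to 3. The lowest pMIR-Sox2 library was thus above the highest pMIR library, and 28.9% of all tested genes were separated in this way in the same direction. The spread was far wider in pMIR-Sox2 (725 ± 222 CPM) than in pMIR (217 ± 11.97 CPM; SD, n = 3 each). On the log2 scale the change was 1.74 ± 0.20 (SE, adjusted p = 0.000247), or 1.95 with pMIR-Sox2 replicate 3 left out. Among the tested genes 97.8% had a lower mean CPM over the libraries than Il5ra, and 94.6% had a smaller log2 fold change. Il5ra was thus among the abundant transcripts of both groups. The level of Sox2 did not order the pMIR-Sox2 libraries as Il5ra did, since Sox2 was highest in replicate 1 and Il5ra in replicate 2, though both were lowest in replicate 3. Over 3 libraries such an order is a description only.

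Csf2rb (ENSMUSG00000071713, chromosome 15), the common beta chain, was read at 30.9, 28.8 and 29.0 CPM in pMIR-Sox2 replicates 1 to 3. In pMIR replicates 1 to 3 it was at 14.2, 12.2 and 17.7 CPM. The groups did not overlap, and the pMIR-Sox2 libraries lay closer to each other (29.6 ± 1.18 CPM) than the pMIR libraries did (14.7 ± 2.78 CPM; SD, n = 3 each). The change was 1.01 ± 0.15 in log2 units (SE, adjusted p = 0.000697). Unlike for Il5ra, pMIR-Sox2 replicate 3 did not lie apart from replicate 2, with pMIR-Sox2 replicate 3 at 29.0 CPM beside replicate 2 at 28.8 CPM.

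Csf2rb2 (ENSMUSG00000071714, chromosome 15), the mouse beta chain that serves IL-3, was the lowest of the 5 genes in both groups. It was read at 7.95, 10.4 and 6.78 CPM in pMIR-Sox2 replicates 1 to 3, against 1.40, 1.10 and 1.97 CPM in pMIR replicates 1 to 3. These levels rest on 173, 193 and 117 counts in pMIR-Sox2 and on 38, 23 and 41 counts in pMIR, so the control values carry sizeable counting error. The groups did not overlap. Csf2rb2 changed by 2.49 ± 0.27 in log2 units (SE, adjusted p = 0.000152), or by 2.63 with pMIR-Sox2 replicate 3 left out. As with Il5ra, replicate 2 was the highest and replicate 3 the lowest of the pMIR-Sox2 libraries. Along the first principal component replicate 2 likewise lay farthest from pMIR and replicate 3 nearest.

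Because reads can be shared between the paralogs, the beta chain genes were also summed and read as a proportion. With their counts summed into 1 row, the change was 1.23 ± 0.15 in log2 units (SE, adjusted p = 0.000279). This lies between the 1.01 of Csf2rb and the 2.49 of Csf2rb2 on their own, and most of the summed counts were of Csf2rb. Csf2rb2 took 20.4% of the summed counts in pMIR-Sox2 replicate 1 (Wilson 95% interval 17.9 to 23.3), 26.6% in replicate 2 (23.5 to 30.0) and 18.96% in replicate 3 (16.1 to 22.2). In pMIR its share was 8.96% in replicate 1 (6.60 to 12.1), 8.27% in replicate 2 (5.58 to 12.1) and 10.02% in replicate 3 (7.48 to 13.3). The shares did not overlap between the groups, nor did their intervals. The mean share was 22.0 ± 4.06% in pMIR-Sox2 and 9.09 ± 0.882% in pMIR (SD, n = 3 each), a difference of 12.9 points. A two-sided exact permutation test gave p = 0.1, the smallest that 3 libraries against 3 allow. Intervals cover counting error only. Whether reads of Csf2rb were assigned to Csf2rb2, and in what share, was not tested.

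**Figure D2:**
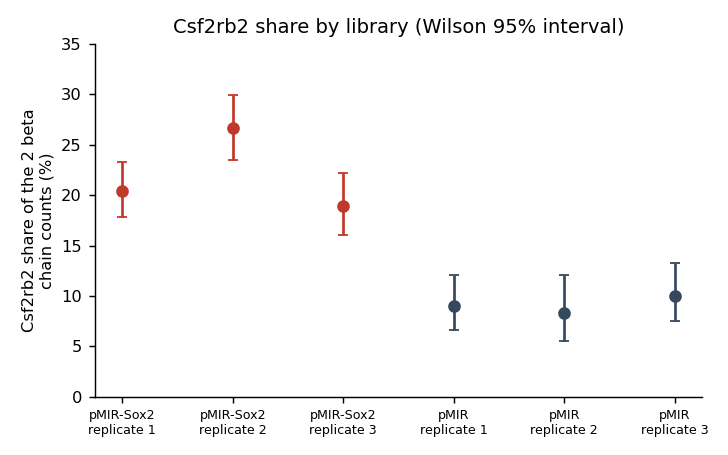
Share of Csf2rb2 in the counts of Csf2rb and Csf2rb2 together, in percent, for each library, with Wilson 95% intervals for counting error. The pMIR-Sox2 libraries (red) lie between 18.96 and 26.6% and the pMIR libraries (dark blue) between 8.27 and 10.02%.

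Il3ra (ENSMUSG00000068758, chromosome 14), the alpha chain for IL-3, was read at 16.3, 23.4 and 16.6 CPM in pMIR-Sox2 replicates 1 to 3 and at 13.9, 19.8 and 14.7 CPM in pMIR replicates 1 to 3. The groups overlapped, and replicate 2 was the highest library in each. Set beside the pMIR library of the same replicate number, the pMIR-Sox2 value was the higher one in 3 of 3 cases. The descriptions of such libraries share a number, but the labels do not name them as pairs. Over 3 cases this is a description only. Its log2 fold change was 0.22 ± 0.19 (SE, adjusted p = 0.374), with a 95% interval of −0.21 to 0.65. With the replicate number as a block the adjusted p was 0.137, and the change was 0.03 with pMIR-Sox2 replicate 2 left out and 0.39 with pMIR replicate 2 left out. The antisense gene Gm48860 overlaps Il3ra exons by 46 bases in the reference annotation, and the strand setting of the counting is not given in the sources used here, so reads there cannot be told apart.

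Csf2ra (ENSMUSG00000059326, chromosome 19), the alpha chain for GM-CSF, was read at 23.2, 23.3 and 23.5 CPM in pMIR-Sox2 replicates 1 to 3. In pMIR replicates 1 to 3 it was at 21.9, 24.8 and 25.0 CPM. The pMIR-Sox2 libraries lay within the range of the pMIR libraries. The change was −0.03 ± 0.11 in log2 units (SE, adjusted p = 0.82), with a 95% interval of −0.28 to 0.21. That interval lies below the whole interval of each gene that rose, which starts at 1.28 for Il5ra, at 0.68 for Csf2rb and at 1.89 for Csf2rb2. The interval of Il3ra likewise ends below those 3 starts, although for Csf2rb by little.

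**Figure D3:**
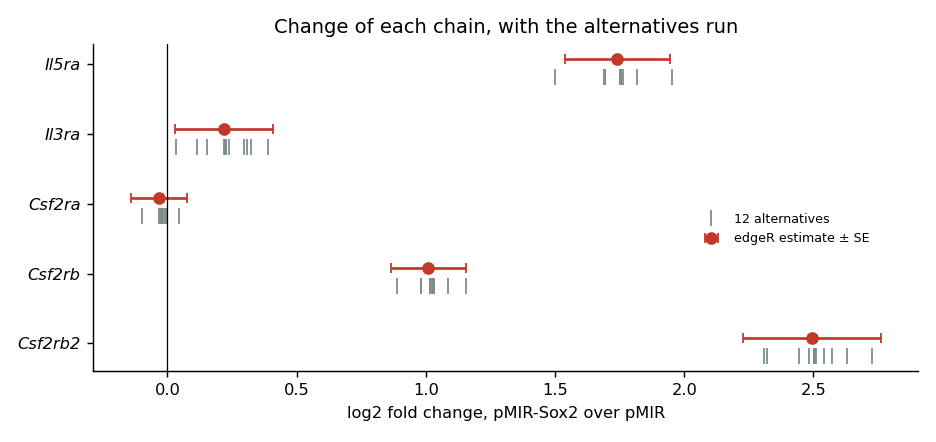
The log2 fold change of pMIR-Sox2 over pMIR for each chain, as the edgeR estimate with its SE (red) and as the values under 12 other settings (grey ticks). Il5ra, Csf2rb and Csf2rb2 stay above 0.8 under each setting drawn, while Il3ra and Csf2ra lie near 0.

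Levels of different genes can be set against each other only per length, here as CPM per kilobase of exon in the reference annotation. In both groups the order was Il5ra, Csf2ra, Il3ra, Csf2rb and Csf2rb2, and no neighbours in that order overlapped in their libraries. Il5ra stood at 203 ± 62.0 CPM per kilobase in pMIR-Sox2 and 60.7 ± 3.35 in pMIR (SD, n = 3 each). Csf2rb stood at 4.06 ± 0.162 CPM per kilobase in pMIR-Sox2 and at 2.02 ± 0.383 in pMIR, below the alpha chains of the IL-3 and GM-CSF receptors. Reads from stretches that the paralogs share may be missing from both beta chains, since alignments that were not unique were listed apart. The size of such a loss was not tested, and it bears on this order and on the ratios below. The order was the same with the longest protein-coding transcript as the length, a choice made after seeing the data. By transcript length, the ratio of Il5ra to Csf2rb was 31.9, 45.2 and 24.0 in pMIR-Sox2 replicates 1 to 3 and 21.4, 22.9 and 17.5 in pMIR replicates 1 to 3. The IL-5-binding chain was thus the more abundant transcript in every library, and these ratios did not overlap between the groups. Against the levels of both beta chains added up, the ratio was 25.2, 32.9 and 19.3 in pMIR-Sox2 replicates 1 to 3 and 19.4, 20.99 and 15.7 in pMIR replicates 1 to 3. Here the groups overlapped, since pMIR-Sox2 replicate 3 lay below pMIR replicates 1 and 2, so the separation held against Csf2rb alone and not against both beta chains. Transcript levels say nothing of the protein at the surface.

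The reference promoter table (RefSeq, GRCm38.p6) held 4 of the 5 genes and lacked Csf2rb, which also rose. The promoters of Il5ra and Csf2rb2, the strongest rises, are shown from 250 bases before to 50 bases after the start site. They were searched on both strands for the octamer motif ATGCAAAT bound by Oct factors, for the Sox motifs CATTGT and CTTTGT, and for the PU.1 core GAGGAA, and no match overlapped another. Capitals mark the matches, which were all to GAGGAA, written TTCCTC where it lies on the opposite strand.
Il5ra (chr6:106748988-106749287, minus strand): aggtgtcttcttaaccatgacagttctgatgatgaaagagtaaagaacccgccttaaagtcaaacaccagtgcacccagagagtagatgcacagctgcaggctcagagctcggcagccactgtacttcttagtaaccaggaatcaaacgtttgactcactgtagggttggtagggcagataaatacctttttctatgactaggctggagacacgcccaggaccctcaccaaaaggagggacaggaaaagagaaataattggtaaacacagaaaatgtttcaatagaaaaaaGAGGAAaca
Csf2rb2 (chr15:78305672-78305971, minus strand): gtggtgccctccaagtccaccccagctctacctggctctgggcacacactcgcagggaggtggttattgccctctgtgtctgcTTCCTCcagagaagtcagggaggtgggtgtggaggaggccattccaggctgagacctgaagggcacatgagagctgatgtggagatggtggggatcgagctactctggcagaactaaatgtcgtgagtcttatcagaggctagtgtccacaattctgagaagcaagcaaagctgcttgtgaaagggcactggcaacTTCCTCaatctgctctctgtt

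In Il5ra the match to GAGGAA lies at bases 42 to 47 after the start site. In Csf2rb2 there were 2 matches, both on the opposite strand, and Csf2ra, which did not pass the test, also had 2. The promoter of Il3ra held no match. Of 32851 promoters in the table, 28.3% hold GAGGAA, 12.6% CATTGT, 18.7% CTTTGT and 1.74% the octamer. The promoters differ in base composition, with 44.3% G and C and 4 CpG in Il5ra and 55% and 3 CpG in Csf2rb2. Those of the genes that did not pass are richer, with 65.3% and 23 CpG in Csf2ra and 74.3% and 35 CpG in Il3ra, where the medians over the table are 52.7% and 7. Csf2rb, which rose, is missing from this comparison. A match is a description of the letters and not a binding site.

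The ligands were hardly read. Il3 had 0 counts in all 6 libraries, which allows up to 0.174 CPM in pMIR-Sox2 and up to 0.144 CPM in pMIR in the least deep library of each. Il5 had 0 counts in the pMIR-Sox2 libraries and 1, 2 and 0 in pMIR replicates 1 to 3. Csf2, which encodes GM-CSF, had 0, 0 and 2 counts in pMIR-Sox2 replicates 1 to 3 and 1, 1 and 0 in pMIR replicates 1 to 3. At this depth none of these genes could be tested.

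Of 4 genes whose products are tied to the IL-5 receptor alpha chain, 3 rose, where 23.2% of all tested genes rose. This list was written with earlier results of these data known. Sox4, a transcription factor that in human cells was linked to this chain through syntenin, rose most, with 971, 1091 and 806 CPM in pMIR-Sox2 replicates 1 to 3 and 42.5, 30.1 and 47.1 CPM in pMIR replicates 1 to 3 (log2 fold change 4.58 ± 0.20 SE, adjusted p = 4.39e-06). Sdcbp, which encodes syntenin, averaged 164 ± 12.6 CPM in pMIR-Sox2 and 91.1 ± 7.71 CPM in pMIR (SD, n = 3 each; log2 fold change 0.84). Jak2, the receptor's kinase, averaged 288 ± 70.2 CPM in pMIR-Sox2 and 140 ± 10.6 CPM in pMIR (log2 fold change 1.04). These 3 genes had no overlap between the groups' libraries, as held in the same direction for 28.9% of all tested genes. Btk, a kinase that IL-5 activates in mouse B cells, stood at 87.6 ± 6.61 CPM in pMIR-Sox2 and 90.9 ± 10.97 CPM in pMIR, with adjusted p = 0.735.

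Of 22 genes of proximal signalling, 7 rose, 2 fell and 13 did not pass. The share that changed was close to the 43.2% of all tested genes, of which 23.2% rose and 20% fell. Jak2 is counted in this list as well. The median log2 fold change was 0.27, against −0.02 over all tested genes. Cblb, a ubiquitin ligase that restrains receptor signalling, had 138 ± 48.7 CPM in pMIR-Sox2 and 10.8 ± 0.524 CPM in pMIR (log2 fold change 3.68, adjusted p = 2.75e-05). The docking adaptor Gab2 averaged 13.9 ± 4.92 CPM in pMIR-Sox2 and 2.61 ± 0.184 CPM in pMIR (2.41). The tyrosine kinase Fes averaged 14.8 ± 1.92 CPM in pMIR-Sox2 and 3.28 ± 0.549 CPM in pMIR (2.17). STAT5 is encoded by a pair of genes, which differed. Stat5a was lower in every pMIR-Sox2 library, at 68.7, 62.2 and 77.0 CPM in replicates 1 to 3, against 187, 132 and 197 CPM in pMIR replicates 1 to 3 (log2 fold change −1.31, adjusted p = 0.000279). Stat5b averaged 171 ± 14.5 CPM in pMIR-Sox2 and 170 ± 7.15 CPM in pMIR, with adjusted p = 0.944. The falls of this list numbered 4 without pMIR-Sox2 replicate 3.

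Most genes known as targets of STAT5 or of the beta chain pathway were lower. Of 20 tested, 12 fell, 2 rose and 6 did not pass, where 20% of all tested genes fell and 23.2% rose. The median log2 fold change was −0.66. The survival kinase gene Pim2 averaged 51.2 ± 4.01 CPM in pMIR-Sox2 and 203 ± 28.8 CPM in pMIR (log2 fold change −1.99, adjusted p = 1.47e-05). Bcl2, which protects from cell death, averaged 37.8 ± 3.15 CPM in pMIR-Sox2 and 87.2 ± 0.969 CPM in pMIR (−1.20). Il2ra, the alpha chain of the IL-2 receptor, averaged 22.4 ± 2.51 CPM in pMIR-Sox2 and 105 ± 28.6 CPM in pMIR (−2.23). Cish, the feedback inhibitor that STAT5 induces, averaged 128 ± 22.9 CPM in pMIR-Sox2 and 183 ± 16.2 CPM in pMIR (−0.52, adjusted p = 0.0144), and was chosen after its values were seen. Id1, an inhibitor of E proteins, went the other way, with 6.62 ± 1.67 CPM in pMIR-Sox2 and 0.314 ± 0.0679 CPM in pMIR (4.35). Many of these genes answer to other stimuli of the culture as well, among them CD40 and IL-4, and the part of IL-5 family receptors in their change was not tested.

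**Figure D4:**
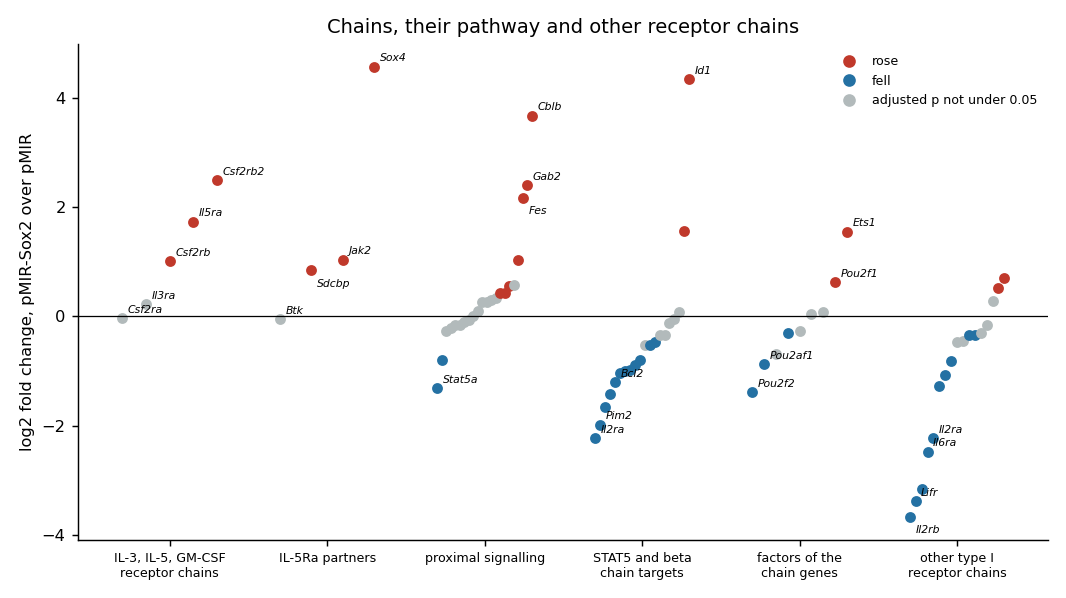
The log2 fold change of pMIR-Sox2 over pMIR for the receptor chains and 5 lists of tested genes, 1 point a gene, red where it rose, blue where it fell and grey where the adjusted p was not under 0.05. Of 20 tested STAT5 and beta chain targets 12 fell, and of 17 other type I receptor chains 10 fell, while 3 of the 5 chains followed here rose. Il2ra is in both of the former lists, and Jak2 is drawn both among the alpha chain partners and in proximal signalling. Of all tested genes 23.2% rose and 20% fell.

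Of 9 tested transcription factors listed for the control of such receptor genes, 2 rose, 3 fell and 4 did not pass. Over all tested genes 23.2% rose and 20% fell. Pou2f2, which encodes Oct-2, a factor known to drive Il5ra in mouse B cells, averaged 26.9 ± 3.60 CPM in pMIR-Sox2 and 70.4 ± 15.7 CPM in pMIR (log2 fold change −1.39, adjusted p = 0.00031). Its coactivator Pou2af1 also fell (−0.88). Ets1 averaged 980 ± 173 CPM in pMIR-Sox2 and 334 ± 72.0 CPM in pMIR (1.55, adjusted p = 0.000248). Pou2f1, which encodes Oct-1, rose by 0.62 on the log2 scale with adjusted p = 0.0275, while it did not pass without pMIR replicate 1 (0.0595), replicate 2 (0.053) or replicate 3 (0.0908) and was at 0.35 without pMIR-Sox2 replicate 1. The list's rises then numbered 1 without any 1 of the pMIR replicates, and its falls numbered 5 with the replicate number as a block or with pMIR-Sox2 replicate 3 left out.

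The other chains of the type I cytokine receptor family were mostly lower. Of 17 tested, 10 fell, 2 rose and 5 did not pass, where 20% of all tested genes fell and 23.2% rose. Il2ra, given above among the STAT5 targets, is counted among these falls too. The median log2 fold change was −0.47. Il2rb, which encodes the IL-2 receptor's beta chain, averaged 0.523 ± 0.234 CPM in pMIR-Sox2 and 6.89 ± 1.25 CPM in pMIR (log2 fold change −3.68, adjusted p = 4.97e-05). Il6ra, the alpha chain of the IL-6 receptor, averaged 1.80 ± 0.451 CPM in pMIR-Sox2 and 9.96 ± 1.10 CPM in pMIR (−2.48). Lifr fell by 3.39 on the log2 scale, and its change was −2.57 without pMIR replicate 2. The rises were of Il11ra1 (0.70) and Il12rb1 (0.52), named after their values were seen, and they numbered 0 when pMIR-Sox2 replicate 1 or 2, or pMIR replicate 1 or 3, was left out.

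By their pattern over the 6 libraries, the tested genes nearest to Il5ra were Slain1, Ttc28 and Mesdc1. Nearness was the root mean square difference of log2 CPM centred on each gene's mean, among 8982 genes with a mean of at least 5 CPM, and it was 0.0518, 0.0585 and 0.0707 for these genes. For Csf2rb the nearest were Kbtbd7, Fbxo28 and Sgk3, and for Csf2rb2 they were Lphn2, Tiam2 and Tfdp2. The difference between the groups makes up most of such a pattern, so nearness says mainly that these genes rose by a like amount. Slain1, for example, averaged 112 CPM in pMIR-Sox2 and 32.1 CPM in pMIR (log2 fold change 1.80). For Il3ra they were Psen2, Npc2 and Stradb, and for Csf2ra they were Appl1, Arhgap27 and Vps8, none of which passed the test.

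Receptors of this family are abundant on eosinophils, basophils, mast cells and macrophages, so markers of these cells were read beside them. Eosinophil markers summed to 2.43 to 4.41 CPM in pMIR-Sox2 and 1.00 to 1.62 CPM in pMIR. Of the 7 listed, Prg2 was the only one with enough counts to be tested and rose (3.45 ± 1.00 CPM in pMIR-Sox2 and 1.23 ± 0.291 CPM in pMIR), while Ccr3 had at most 3 counts a library and Ear1 and Ear2 had 0 counts in all libraries. Basophil and mast cell markers summed to 57.8 to 104 CPM in pMIR-Sox2 and 0.667 to 3.41 CPM in pMIR. Nearly all of this was Hdc, the histamine-forming enzyme, at 76.8 ± 23.7 CPM in pMIR-Sox2 and 0.494 ± 0.321 CPM in pMIR (log2 fold change 7.30, and 7.91 without pMIR replicate 3). Of the 8 genes listed, Mcpt8, Cpa3, Fcer1a and Prss34 had 0 counts in every library. Ms4a2 had 2, 0 and 1 counts in pMIR-Sox2 replicates 1 to 3 and 0 counts in the pMIR libraries. Gata2 had 9, 3 and 2 counts in pMIR-Sox2 replicates 1 to 3 and 2, 1 and 1 counts in pMIR replicates 1 to 3. Kit averaged 1.81 ± 1.08 CPM in pMIR-Sox2 and 1.67 ± 1.17 CPM in pMIR. Neutrophil markers summed to at most 0.974 CPM in pMIR-Sox2 and 2.14 CPM in pMIR, led by Ltf and Csf3r, with S100a8, S100a9, Elane and Camp at 0 counts. Macrophage and dendritic cell markers summed to 42.2 to 46.4 CPM in pMIR-Sox2 and 47.0 to 55.3 CPM in pMIR, led by Emr1 and Cd68. Of 6 tested, 2 rose and 2 fell, beside 23.2% and 20% of all tested genes. Emr1 rose (log2 fold change 0.56) and Cd68 fell (−1.12). The other rise, Lyz2, had 17, 10 and 11 counts in pMIR-Sox2 replicates 1 to 3 and 1, 0 and 1 in pMIR replicates 1 to 3. The other fall, Flt3, had 115, 128 and 104 counts in pMIR-Sox2 replicates 1 to 3 and 461, 306 and 199 in pMIR replicates 1 to 3. T and NK cell markers stayed at or under 2.99 CPM in pMIR-Sox2 and 1.72 CPM in pMIR, and the 1 gene tested, Cd247, did not pass. Each of those sums was below the level of Il5ra in the same library. The macrophage and dendritic cell sum was above each other chain in both groups, as was the basophil and mast cell sum in pMIR-Sox2. In some pMIR libraries the eosinophil, basophil and mast cell, neutrophil, and T and NK cell sums were above Csf2rb2. These are CPM not set per length, so they compare read amounts only. The part of such cells in the chains' levels was not tested. In bulk samples fewer cells of a type and less RNA per cell cannot be told apart.

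B-1 cells, which carry the IL-5 receptor without activation, were read through 5 markers. Spn, which encodes CD43, averaged 59.7 ± 8.67 CPM in pMIR-Sox2 and 29.3 ± 6.76 CPM in pMIR (log2 fold change 1.03, adjusted p = 0.00152). Bhlhe41, a transcription factor of B-1 cells, averaged 8.92 ± 2.81 CPM in pMIR-Sox2 and 48.7 ± 15.6 CPM in pMIR (−2.46, adjusted p = 0.000289). Of the 5, 1 rose, 3 fell and 1 did not pass (2 rose with the replicate number as a block or with pMIR-Sox2 replicate 2 left out), and the list summed to 84.7 to 106 CPM in pMIR-Sox2 and 108 to 163 CPM in pMIR. Among all tested genes 23.2% rose and 20% fell. The part of B-1 cells in the rise of Il5ra was not tested.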

How the data were processed

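The authors deposited raw counts by Ensembl gene for 6 total RNA libraries. The submitters' processing notes list HTSeq 0.6.1p1, SAMtools 0.1.19, TopHat2 2.0.11, Bowtie2 2.2.2, Trimmomatic 0.32 and build mm9. The annotation release and strand setting are not given in the sources used here. Genes held 51.9 to 53.2% of the table's total, and the 5 lines that name no gene were left out.

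The test used edgeR 4.0.16 with R 4.3.3 (filterByExpr, TMM, robust quasi-likelihood fit on the group, all genes). SE is the log2 fold change over the square root of F. The test was checked on simulated data. Alternatives were DESeq2 1.42.0, limma 3.58.1 (voom), other scalings, no filter, each library left out, and the replicate number as a block. Same-numbered libraries deviated together, with correlations of 0.242, 0.359 and 0.189 for replicates 1 to 3, and their descriptions share a number. Named were all receptor chains, ligands and alpha chain partners, and up to 4 genes of smallest adjusted p from other lists with at least 5 CPM, and the 2 highest markers of each cell type, of which 1 is not reported here. For each chain the 3 genes nearest in pattern were named. Stat5b, Cish, the neighbours and the markers given as 0 or by counts alone were named after their values were seen. The members and lists were chosen with earlier results of these data known.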

Additional observations from a re-analysis of the deposited data

How the results depend on the processing

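Il5ra, Csf2rb and Csf2rb2 rose, and Il3ra and Csf2ra did not pass, under every alternative run: DESeq2 size factors, library totals only, no filter, the DESeq2 Wald test, limma-voom, the replicate block and each library left out. The log2 fold change ran from 1.5 to 1.95 for Il5ra (adjusted p at most 0.00255) and from −0.10 to 0.04 for Csf2ra, and from 0.03 to 0.39 for Il3ra, whose smallest adjusted p was 0.135. With the replicate block the values were 1.70 for Il5ra, 1.02 for Csf2rb and 2.48 for Csf2rb2. Summing the paralogs gave 1.23, but Csf2rb2 held at most 26.6% of the summed counts in any library. That row follows mostly Csf2rb (1.01 on its own) and is no other estimate for Csf2rb2 (2.49). Among the 3 chains that rose, no setting that kept the paralogs apart moved a log2 value by over 1.5 times. The values of Il3ra and Csf2ra, near 0, moved by more than that within the ranges above, and Csf2ra was above 0 with library totals only. The difference in Csf2rb2 share ran from 10.6 to 14.4 points with a library left out. Among lists, 1 other chain rose with no filter or by the DESeq2 Wald test, 1 neutrophil marker fell with no filter, and Cd247 rose with library totals only, no filter, the replicate block and without pMIR-Sox2 replicate 3. The block changed no other call of a named gene. Depth limits Csf2rb2 in pMIR, at 23 to 41 counts, and the ligands.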

Other observations

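The genes that flank the receptor chains in the RefSeq annotation (GRCm38.p6) were read as a description, a look added after the chains' values were known. Cntn4, a neural adhesion gene next to Il5ra, had 445, 461 and 170 counts in pMIR-Sox2 replicates 1 to 3 and 3, 0 and 2 counts in pMIR replicates 1 to 3 (log2 fold change 7.88 ± 0.57 SE by edgeR, adjusted p = 3.31e-05). Like Il5ra, it was highest in pMIR-Sox2 replicate 2 and lowest in replicate 3. The order is not particular to these neighbours, since Sox4 and Jak2 had it too. Along the first principal component replicate 2 likewise lay farthest from pMIR and replicate 3 nearest. Trnt1, on the other side of Il5ra, averaged 107 ± 6.79 CPM in pMIR-Sox2 and 121 ± 10.3 CPM in pMIR (SD, n = 3 each; log2 fold change −0.17, adjusted p = 0.203). Csf2rb and Csf2rb2 are each other's nearest neighbours in that annotation and lie on opposite strands. Ncf4, a subunit of the phagocyte oxidase beyond Csf2rb2, averaged 66.4 ± 5.37 CPM in pMIR-Sox2 and 72.1 ± 5.40 CPM in pMIR (−0.12, adjusted p = 0.384). Tex33, beyond Csf2rb, had 1 count over the 6 libraries. Slc4a7, next to Il3ra, fell by 0.48 on the log2 scale (adjusted p = 0.0358) and did not pass with library totals only (0.0842), or when pMIR-Sox2 replicate 2 (0.0834) or 3 (0.0819) or pMIR replicate 1 (0.12) or 2 (0.0762) was left out.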
